A study of Mus musculus with 18 samples.

Results

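The nuclear genes of the oxidative phosphorylation system were followed in bulk polyadenylated RNA over 6 groups of cultures of the established mouse pre-osteoblast line MC3T3-E1. The genes were taken by name: symbols that begin with Nduf, Uqcr, Atp5, Cox4, Cox5, Cox6, Cox7 or Cox8, together with Sdha, Sdhb, Sdhc, Sdhd and Cyc1, on any chromosome other than the mitochondrial one and without -ps in the name. This found 96 genes, of which 89 reached 1 FPKM (a level scaled to transcript length and to library depth) in at least 3 libraries and form the set, out of 11936 genes that passed the same filter. Cells were seeded at 20000 per well on sterile membrane discs of 15 mm and cultured for 5 days. The groups were PLLA/ZnO@Col +US, PLLA/ZnO@Col -US, PLLA/ZnO +US, PLLA/ZnO -US, PLLA +US and PLLA -US, with 3 libraries each. PLLA is a polylactide polyester that all membranes share, ZnO marks added zinc oxide, @Col marks added collagen, +US marks ultrasound for 10 min every day and -US no ultrasound. All groups were given as the same cell line. Some libraries differed in marker genes, as given below, and whether all held the same mix of cells was not tested. The labels do not say whether the 3 libraries of a group came from separate cultures, so the p-values measure the spread between these libraries, which may be technical.

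Oxidative phosphorylation takes place in the inner mitochondrial membrane. Complex I (NADH dehydrogenase) and complex II (succinate dehydrogenase) pass electrons to ubiquinone, complex III (cytochrome bc1) passes them to cytochrome c, and complex IV (cytochrome c oxidase) passes them to oxygen. Complexes I, III and IV pump protons, and complex V (ATP synthase) lets the protons back to make ATP. Most subunits are encoded in the nucleus, while a small core of complexes I, III, IV and V is encoded by mitochondrial DNA. Osteoblast precursors use glycolysis together with oxidative phosphorylation, and mitochondrial respiration is known to matter during their differentiation.

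Complex I supplied 44 of the 89 genes, namely 7 core subunits, 29 accessory subunits and 8 assembly factors with the Ndufaf prefix, which help to build the complex and are not part of the finished enzyme. Complex II supplied 4 genes, complex III 9, complex IV 13 and complex V 17. Ndufa4 was counted with complex IV, in which its product is now placed, and so was Cox7a2l, a factor that joins complexes III and IV into supercomplexes. The remaining 2, Ndufb4c and Cox6c2, are processed pseudogenes by their biotype and were set apart. The 7 genes left out for low FPKM were the complex IV isoform genes Cox4i2, Cox6b2, Cox7a1 and Cox7b2, the complex IV paralogue Ndufa4l2, and the processed pseudogenes Ndufa11b and Ndufs6b. Of the 89 genes, 88 were at 1 FPKM or more in every library, and the exception was Cox6c2, at 0.102 to 1.06 FPKM. Just outside the cut-off lay Ndufs6b, which reached 1 FPKM in 2 libraries.

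Libraries held 48307580 to 78039543 counts over genes, and counts of these genes ran from 2 to 181917 per library. Of the osteoblast markers, Col1a1 (type I collagen) was at 500.4 to 1165 FPKM, Spp1 (osteopontin) at 637 to 3609 FPKM and Runx2 at 6.22 to 9.54 FPKM. Alpl, Bglap, Ibsp and Sp7 stayed at 0.746 FPKM or lower in every library. The summed level of 8 macrophage markers was 18.1 to 49.0 FPKM in PLLA/ZnO@Col +US, 21.7 to 50.8 in PLLA/ZnO@Col -US, 21.6 to 39.2 in PLLA/ZnO +US, 18.2 to 42.3 in PLLA/ZnO -US, 24.95 to 41.0 in PLLA +US and 41.9 to 44.2 in PLLA -US. Adipocyte, endothelial and muscle marker sums were at most 2.18 FPKM. Kap, a kidney tubule transcript, was at 62.4 FPKM in PLLA +US replicate 3 and at 0 in the other libraries. The summed level of 8 epithelium and kidney tubule markers was 68.3 FPKM in PLLA +US replicate 3. It was at most 0.244 FPKM in each of the other groups. Some libraries stood apart in Y-linked genes (Ddx3y, Eif2s3y, Kdm5d and Uty summed). The lowest were replicates 1 and 3 of PLLA/ZnO@Col -US together with replicate 1 of PLLA/ZnO@Col +US, at 0.185 to 0.386 FPKM, and there Thy1, a mesenchymal surface marker, was at 0.0709 to 0.128 FPKM. The Y-linked sum was intermediate, 2.55 to 6.10 FPKM, in replicates 2 and 3 of PLLA/ZnO@Col +US and in replicate 3 of both PLLA/ZnO +US and PLLA +US, and the other 11 libraries at 10.5 to 21.8 FPKM. Thy1 was at 2.55 to 5.79 FPKM in those 15 libraries. The comparisons that use these libraries are given below with and without them, a choice made after the data were seen. In bulk RNA, fewer cells of a type and less RNA per cell cannot be told apart.

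Levels within a complex differed widely, and FPKM is compared here because it is scaled to transcript length. Complex I had the lowest median level of the 5 complexes, 20.9 FPKM over its 44 genes, against 43.9 for complex II, 39.1 for complex III, 47.8 for complex IV and 38.8 for complex V. Within complex I the median was 33.6 FPKM for the core subunits, 28.9 for the accessory subunits and 6.26 for the assembly factors, each of which averaged 8.78 FPKM or less. Ndufb10, an accessory subunit of the membrane arm (chr17:24722060-24724478), was the highest gene of complex I at a mean of 81.04 FPKM over the 18 libraries, with a range of 48.8 to 124. Ndufb2, another accessory subunit, was the lowest at 1.94 FPKM, with a range of 1.36 to 3.18.

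Among the 4 genes of complex II, Sdhd, the small membrane anchor subunit, averaged 64.8 FPKM, Sdha, the flavoprotein that oxidises succinate, 49.6, Sdhc, the other anchor subunit, 38.3, and Sdhb, the iron-sulphur subunit, 26.3. In complex III the highest gene was Uqcr11, a small accessory subunit, at 56.4 FPKM, and the lowest was Uqcr10 at 18.3 FPKM. Cox8a was the highest gene of complex IV at 253 FPKM, with Cox6a1 next at 203. Atp5b, the catalytic beta subunit of ATP synthase (chr10:128083273-128090391), was the highest of all 89 genes at 434 FPKM, with a range of 282 to 706, and Atp5l was the lowest of complex V at 12.4 FPKM.

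**Figure D1:**
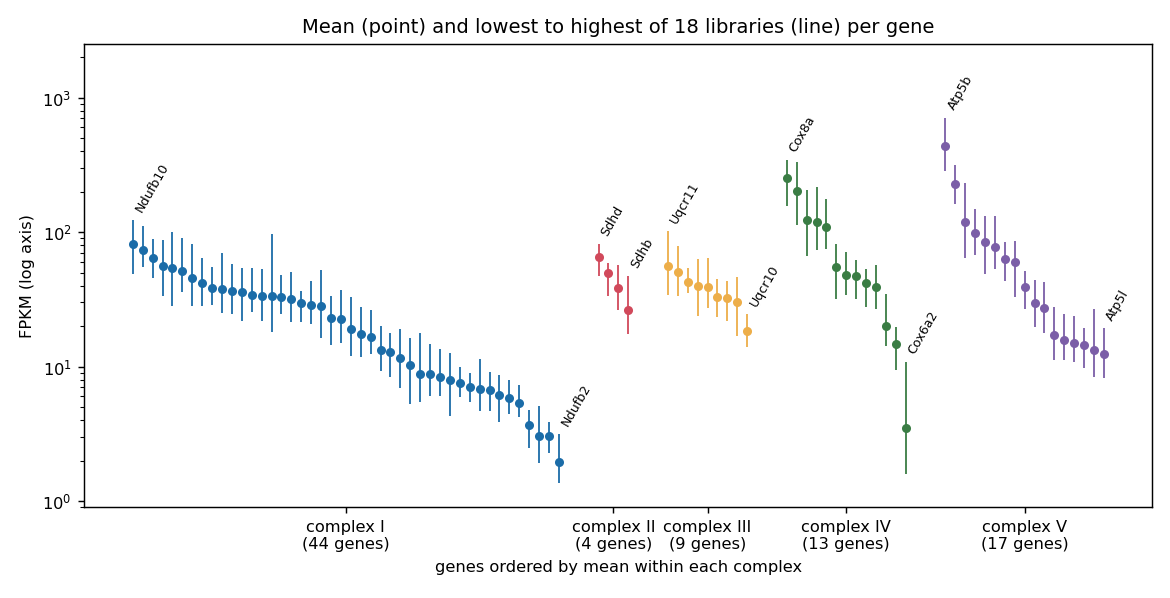
Level of each gene in FPKM on a log axis, for the genes of complexes I to V ordered by their mean within each complex. Points are means over 18 libraries and lines run from the lowest to the highest library, and the means span 1.94 FPKM (Ndufb2) to 434 FPKM (Atp5b).

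Complex IV has subunits with alternative isoforms, and in each isoform pair the widely expressed form was the higher one. Cox4i1 ranged from 66.9 to 205 FPKM, whereas Cox4i2, the isoform known from lung and from low oxygen, was at most 0.213 FPKM and was listed at 0 in 11 libraries. Cox6b2, known from testis, was listed at 0 in 17 libraries, and Cox7a1, known from heart and muscle, did not exceed 0.147 FPKM. Ndufa4l2, a hypoxia-induced paralogue of Ndufa4, did not exceed 0.361 FPKM, against 31.9 to 61.9 FPKM for Ndufa4. Cox6a2, the muscle isoform, was the one minor form above 1 FPKM throughout, and made up 0.798 to 3.15% of the summed FPKM of Cox6a1 and Cox6a2. Its level was 4.53, 3.13 and 3.39 FPKM in PLLA/ZnO@Col +US, 4.42, 2.36 and 10.7 for PLLA/ZnO@Col -US and 3.50, 2.01 and 2.26 for PLLA/ZnO +US. It was 2.83, 3.70 and 3.10 in PLLA/ZnO -US, 3.30, 2.07 and 3.19 in PLLA +US, and 3.14, 1.60 and 3.46 in PLLA -US. The groups overlapped, and 1 library, PLLA/ZnO@Col -US replicate 3, lay above all others. Cox7a2l made up 64.5 to 75.6% of the summed FPKM of Cox7a2 and Cox7a2l. The membrane ring of ATP synthase is built from subunit c, which 3 genes encode as the same mature protein. Of their summed FPKM, Atp5g3 made up 42.1 to 51.3%, Atp5g2 38.8 to 47.3% and Atp5g1 6.68 to 13.7% over the 18 libraries.

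Names with -ps were excluded by the rule, yet 7 of these 12 reached 1 FPKM in at least 3 libraries. Among them, Ndufb1-ps (4.73 to 9.86 FPKM) and Cox5b-ps (6.04 to 13.98 FPKM) have a protein-coding biotype, so the rule may leave out working genes. Reads can be shared between processed pseudogenes and their parent genes in a way the sources used here do not describe. The clearest case was Ndufa12, an accessory subunit of complex I. Its copy Ndufa12-ps ranged from 62.9 to 151 FPKM, against 18.2 to 96.2 FPKM for Ndufa12 itself. In PLLA/ZnO@Col -US replicate 3, Ndufa12 was at its highest, 96.2 FPKM, and Ndufa12-ps at its lowest, 62.9 FPKM. In PLLA +US replicate 3 the values were 51.0 FPKM for Ndufa12 and 66.7 FPKM for the copy, again a high value beside a low one. Both were low in PLLA/ZnO@Col -US replicate 2, at 18.2 FPKM for Ndufa12, its lowest, and 70.1 FPKM for the copy. Values of Ndufa12, Ndufb4c and Cox6c2 are therefore uncertain as measures of 1 gene.

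The genes moved together from library to library, and the largest steps lay between libraries of the same group. Each gene's log2 CPM (counts scaled to library depth, after TMM scaling) was set against its own mean over the 18 libraries, and the median over the 89 genes was taken in each library. It was -0.01, 0.16 and 0.01 in PLLA/ZnO@Col +US, -0.11, -0.52 and 0.62 for PLLA/ZnO@Col -US and 0.10, -0.05 and 0.39 for PLLA/ZnO +US. It was 0.17, 0.22 and -0.05 in PLLA/ZnO -US, -0.05, -0.22 and 0.05 in PLLA +US, and -0.33, -0.10 and -0.17 in PLLA -US. The widest range within a group was 1.14, in PLLA/ZnO@Col -US, whereas the means of the 6 groups spanned 0.348. PLLA/ZnO@Col -US replicate 2 was the lowest library for 61 of the 89 genes, and replicate 3 of the same group was the highest for 54. One principal axis held 63.2% of the variance of the 89 genes over the libraries and the next 15.4%. The medians of the complexes mostly had the same sign in a library, and the 4 genes of complex II lay apart in some. In PLLA/ZnO@Col -US replicate 3 the medians were 0.63 for complex I, 0.33 for complex II, 0.50 for complex III, 0.62 for complex IV and 0.62 for complex V. They were, in PLLA/ZnO@Col +US replicate 2, 0.12 for complex I, 0.27 for complex II, 0.26 for complex III, 0.06 for complex IV and 0.17 for complex V.

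**Figure D2:**
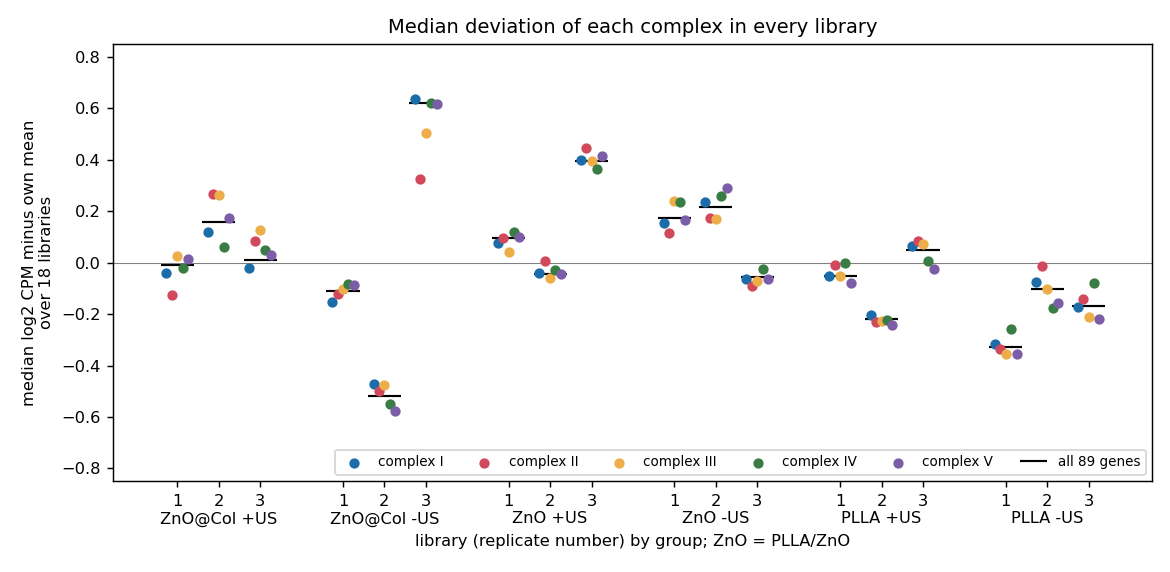
Median deviation of each complex (coloured points) and of all 89 genes (black bars) in each library, as log2 CPM minus each gene's mean over 18 libraries. Complex II in PLLA/ZnO@Col -US replicate 3 (0.33) lies below complexes I, IV and V (0.62 to 0.63), and PLLA/ZnO@Col -US holds both the lowest (-0.52) and the highest (0.62) median.

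Summed FPKM per complex had the same lowest group as the mean of the library medians, PLLA -US. For complex I the sum was 1106 ± 76.7 FPKM in PLLA/ZnO@Col +US, 1126 ± 502 in PLLA/ZnO@Col -US, 1204 ± 205 in PLLA/ZnO +US, 1173 ± 122 in PLLA/ZnO -US, 1081 ± 157 in PLLA +US and 952 ± 86.8 in PLLA -US (SD, n = 3 each). For complex II it was 179 ± 21.9, 166 ± 36.8, 201 ± 33.6, 186 ± 15.7, 179 ± 21.1 and 163 ± 17.2 FPKM in the same order of groups. For complex III it was 348 ± 27.5, 342 ± 124, 367 ± 53.0, 365 ± 34.2, 332 ± 40.2 and 299 ± 23.9 FPKM in that order. All 3 sums were lowest in PLLA -US. For complex IV the sum was 1069 ± 40.2, 1058 ± 465, 1189 ± 195, 1163 ± 117, 1055 ± 150 and 927 ± 54.4 FPKM. For complex V it was 1455 ± 121, 1448 ± 583, 1476 ± 297, 1317 ± 122, 1255 ± 158 and 1124 ± 92.5 FPKM, so that PLLA -US was the lowest group for all 5 complexes. Gene by gene, PLLA -US had the lowest group mean for 60 of the 89 genes. PLLA/ZnO +US had the highest group mean for 36 genes and PLLA/ZnO -US for 29.

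Since the genes moved together, their promoters were read for motifs of 2 factors known to act on nuclear respiratory genes. NRF1 binds a palindrome known as the NRF1 motif, and GABPA, an ETS factor also called NRF2, binds sites that hold CCGGAAG. Windows of RefSeq (build GRCm38.p6) that run from 250 bases before to 50 bases after each annotated start were searched on both strands, and 77 windows of 72 of the genes were found. The NRF1 motif lay in 7 of the 77 windows (9.09%), against 0.971% of all 32851 windows and 2.14% of the 10788 windows of tested genes. CCGGAAG lay in 19 windows (24.7%), against 8.86% of all windows and 18.8% of those of tested genes. The 5 windows below, 1 for each complex, are shown as examples that hold a motif, in lower case, on the strand of the gene, with the match in capitals. A match of CCGGAAG on the other strand reads CTTCCGG.
Ndufa11: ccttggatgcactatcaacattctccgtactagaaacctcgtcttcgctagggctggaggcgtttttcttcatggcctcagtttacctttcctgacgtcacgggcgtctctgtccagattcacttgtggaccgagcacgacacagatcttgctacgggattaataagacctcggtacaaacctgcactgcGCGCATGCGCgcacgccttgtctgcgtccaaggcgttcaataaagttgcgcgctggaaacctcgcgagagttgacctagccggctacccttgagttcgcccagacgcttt
Sdhd: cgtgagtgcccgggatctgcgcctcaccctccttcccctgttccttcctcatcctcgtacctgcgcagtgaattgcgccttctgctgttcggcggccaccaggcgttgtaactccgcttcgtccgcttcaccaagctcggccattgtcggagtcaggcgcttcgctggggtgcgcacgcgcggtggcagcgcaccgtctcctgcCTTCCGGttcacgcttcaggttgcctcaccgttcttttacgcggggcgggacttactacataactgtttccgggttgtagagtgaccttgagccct
Uqcrc1: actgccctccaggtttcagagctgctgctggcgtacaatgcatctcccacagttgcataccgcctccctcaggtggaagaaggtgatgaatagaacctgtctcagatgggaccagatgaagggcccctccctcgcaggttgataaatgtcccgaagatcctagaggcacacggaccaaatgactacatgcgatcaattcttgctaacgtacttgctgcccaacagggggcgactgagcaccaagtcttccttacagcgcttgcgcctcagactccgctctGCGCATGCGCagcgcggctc
Cox6a1: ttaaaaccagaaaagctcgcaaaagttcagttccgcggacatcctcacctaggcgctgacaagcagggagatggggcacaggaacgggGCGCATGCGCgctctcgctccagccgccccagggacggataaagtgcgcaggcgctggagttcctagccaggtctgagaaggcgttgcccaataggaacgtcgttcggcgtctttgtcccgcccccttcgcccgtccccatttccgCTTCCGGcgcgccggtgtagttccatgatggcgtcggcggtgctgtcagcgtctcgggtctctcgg
Atp5k: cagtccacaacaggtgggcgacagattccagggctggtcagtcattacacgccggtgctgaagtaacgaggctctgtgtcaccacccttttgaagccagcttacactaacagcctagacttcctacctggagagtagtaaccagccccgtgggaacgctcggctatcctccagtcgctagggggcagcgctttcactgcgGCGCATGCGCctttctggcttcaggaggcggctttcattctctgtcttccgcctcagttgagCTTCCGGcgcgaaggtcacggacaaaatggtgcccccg
These are chr17:56717512-56717811 on the plus strand for Ndufa11, chr9:50603800-50604099 on the minus strand for Sdhd, chr9:108936398-108936697 on the plus strand for Uqcrc1, chr5:115348909-115349208 on the minus strand for Cox6a1 and chr5:108434350-108434649 on the minus strand for Atp5k. Cox6a1, the complex IV isoform of most tissues, and Atp5k, subunit e of ATP synthase, hold both motifs. The NRF1 motif begins 162 bases before the start in Cox6a1 and 50 bases before it in Atp5k. A match describes letters only and says nothing of binding.

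Another class of short and highly expressed genes shifted in the same libraries. The 81 cytosolic ribosomal protein genes had library medians of -0.71 and 0.59 in PLLA/ZnO@Col -US replicates 2 and 3, where the 89 genes had -0.52 and 0.62. In PLLA/ZnO +US replicate 3 they had 0.47 and the 89 genes 0.39, and in PLLA -US replicate 1 -0.31 and -0.33. The 89 genes have short transcripts: their median length was 918 bases, against 2842 for all tested genes, and 87.8% of tested genes were longer than that median. Over all tested genes, the rank correlation of a gene's deviation in a library with transcript length ran from -0.52 in PLLA/ZnO@Col -US replicate 3 to 0.45 in replicate 2 of that group. The same correlation with GC content ran from -0.66 in PLLA -US replicate 1 to 0.75 in PLLA/ZnO@Col +US replicate 2. These are across genes and carry no p. With offsets fitted for length and GC in each library, the SD of the 18 library medians of the 89 genes was 0.143, against 0.259 without them.

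**Figure D3:**
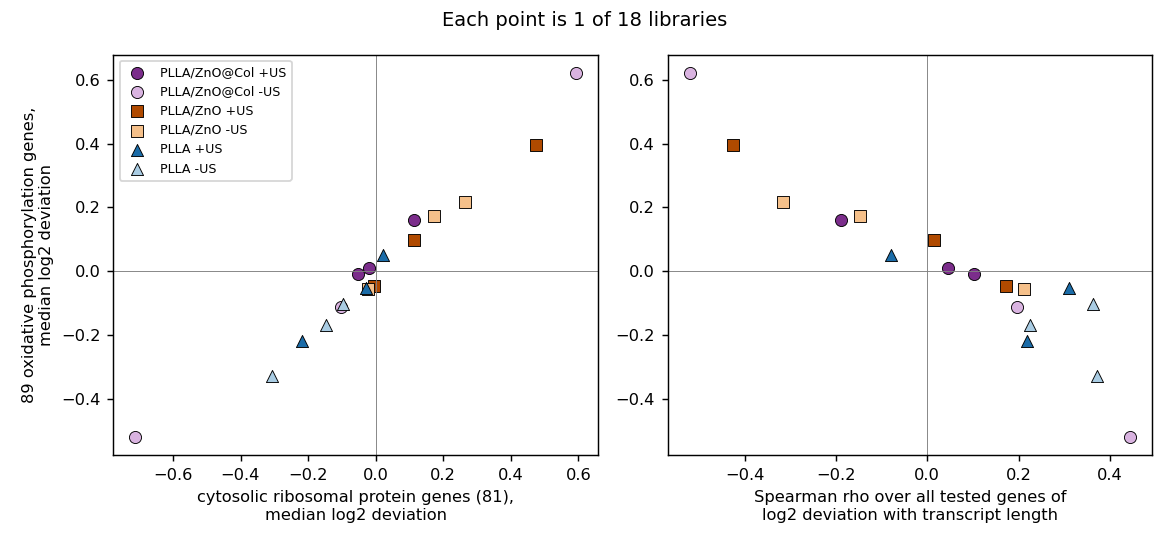
Median deviation of the 89 genes in each library (vertical axes, log2) against that of 81 cytosolic ribosomal protein genes (left) and against the rank correlation of all tested genes with transcript length (right). Libraries high in ribosomal protein genes were high in the 89 genes, and PLLA/ZnO@Col -US replicates 2 and 3 sit at opposite ends of both plots.

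Zinc oxide without ultrasound was the comparison in which the set leaned most to one side. In PLLA/ZnO -US against PLLA -US, 88 of 89 genes (98.9%) had a fold change above 1, against 48.9% of all tested genes. The median log2 fold change was 0.32 (1.25-fold), against -0.01 over all tested genes. It was 0.30 for complex I, 0.21 for complex II, 0.34 for complex III, 0.34 for complex IV and 0.35 for complex V, and the 1 gene below 0 was the assembly factor Ndufaf4. In 50 of the 89 genes all 3 PLLA/ZnO -US libraries lay above all 3 PLLA -US libraries, against 9.65% of all tested genes, and in none the reverse, against 8.58%. Overlap was judged on TMM-scaled CPM here and in the comparisons that follow. These 50 were 22 of 44 genes of complex I, 1 of 4 of complex II, 5 of 9 of complex III, 11 of 13 of complex IV and 11 of 17 of complex V. No gene passed the test: edgeR's quasi-likelihood test, Benjamini-Hochberg adjusted over 11936 genes, called 0 of the 89 (0% of all genes), and 3 were at an unadjusted p under 0.05, against 1.19% of all genes. DESeq2 and limma also called 0 of the 89. The count at an unadjusted p was unstable: it was 43 with only the groups compared in the fit, against 9.84% of all genes, and 30 without the 3 libraries lowest in Y-linked genes, against 5.05%, although no library of the comparison is then left out. Without PLLA/ZnO@Col -US replicate 2 or replicate 3 it was 13, against 2.17% and 2.93%, and without PLLA/ZnO -US replicate 1 it was 0, against 0.863%. The genes of a library share its shift, so these counts are not 89 separate pieces of evidence.

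The 3 genes with the smallest p were subunits of complex I. Ndufa2, an accessory subunit of the matrix arm (chr18:36742332-36744557), was at 48.3, 54.1 and 40.6 FPKM in PLLA/ZnO -US, against 28.4, 34.4 and 31.5 FPKM in PLLA -US. Ndufc1, a small membrane arm subunit (chr3:51404677-51408988), was at 6.85, 9.50 and 6.25 FPKM in PLLA/ZnO -US, against 5.26, 4.71 and 4.86 FPKM in PLLA -US. Ndufv3, an accessory subunit of the flavoprotein part, was at 15.2, 15.2 and 17.6 FPKM in PLLA/ZnO -US, against 9.51, 12.0 and 12.3 FPKM in PLLA -US. In all 3 genes the groups did not overlap. The log2 fold changes were 0.61 (SE 0.24) for Ndufa2, 0.61 (SE 0.25) for Ndufc1 and 0.52 (SE 0.24) for Ndufv3, each with an edgeR adjusted p of 1. The ribosomal protein genes were higher in 80 of 81 genes in this comparison, with a median log2 fold change of 0.33. With the length and GC offsets the median of the 89 genes was 0.16 and the count above 0 was 80, against 51.1% of all genes, while 35 did not overlap, against 8.32%. Neither group holds a library low in Y-linked genes.

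With ultrasound, most of the set again had higher values on zinc oxide. In PLLA/ZnO +US against PLLA +US, 83 of 89 genes had a fold change above 1, against 46.2% of all tested genes, and the median log2 fold change was 0.22, against -0.02 over all genes. The ribosomal protein genes had 80 of 81 above 0, with a median of 0.28. In 17 genes the groups did not overlap with PLLA/ZnO +US higher, against 4.49% of all genes, and 7 of these belonged to complex V. In none was PLLA/ZnO +US lower without overlap, against 4.51%. edgeR called 0 of the 89 and 0% of all genes, DESeq2 and limma also called 0 of the 89, and 4 were at an unadjusted p under 0.05, against 1.27% of all genes. Atp5mpl, a small membrane subunit of ATP synthase (chr12:111961375-111966977), was at 18.6, 17.4 and 19.5 FPKM in PLLA/ZnO +US, against 14.5, 13.5 and 11.3 FPKM in PLLA +US. Its log2 fold change was 0.54 (SE 0.22, edgeR adjusted p = 1). Ndufc1 was at 7.25, 7.33 and 10.4 FPKM in PLLA/ZnO +US, against 4.96, 5.14 and 6.98 FPKM in PLLA +US, and its log2 fold change was 0.60 (SE 0.25). Uqcr10, the small complex III subunit, was at 20.3, 18.8 and 24.5 FPKM in PLLA/ZnO +US, against 15.7, 16.5 and 17.1 FPKM in PLLA +US, and its log2 fold change was 0.41 (SE 0.18). Each of these 3 had libraries that did not overlap, and Uqcr10 was at 0.23 with the length and GC offsets. Without PLLA/ZnO +US replicate 3 the set's median was 0.09 with 59 genes above 0, and with the length and GC offsets it was 0.11 with 72 above 0, against 53.2% of all genes. With these offsets 8 genes did not overlap with PLLA/ZnO +US higher, against 6.33% of all genes. Without the 4 ultrasound libraries intermediate in Y-linked genes it was 0.14 with 80 above 0.

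**Figure D4:**
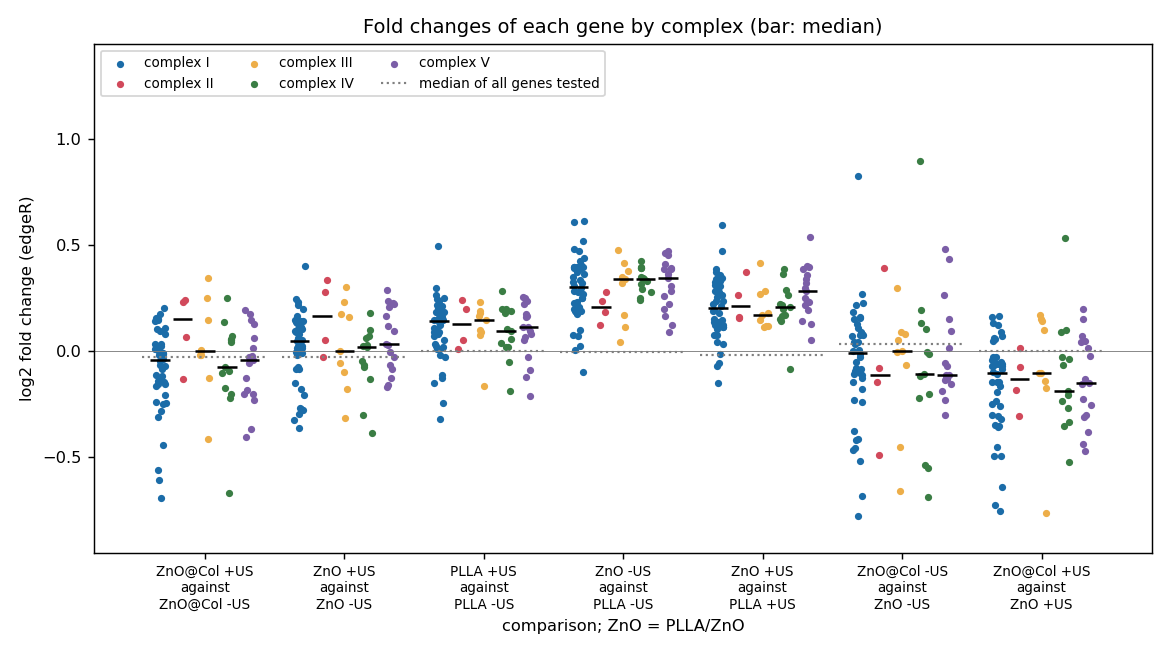
Log2 fold changes (edgeR) of each gene of complexes I to V in the 7 comparisons, with black bars for the median of each complex and dotted lines for the median of all 11936 tested genes. The medians of all 5 complexes lie above that of all genes for both PLLA/ZnO against PLLA comparisons, and no gene passed the adjusted threshold.

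Without ultrasound, the collagen comparison had a median near 0 for the set and lower values of Sdha, Ndufs4 and Cox7c. In PLLA/ZnO@Col -US against PLLA/ZnO -US, 40 genes were above 0 and 49 below, against 55% of all tested genes above and 45% below, and the median log2 fold change was -0.02, against 0.04 over all genes. In 7 genes the PLLA/ZnO@Col -US libraries all lay below those of PLLA/ZnO -US, against 5.9% of all genes, and in none above, against 5.36%. edgeR called 0 of 89 and 0 of 11936 genes, and 11 of the 89 were at an unadjusted p under 0.05, against 12.9% of all genes, so the share was near that of all genes. All 11 were lower in PLLA/ZnO@Col -US. DESeq2's Wald test called 2 of the 89, Sdha (adjusted p = 0.0382) and Ndufs4 (adjusted p = 0.0403), against 3.41% of all genes (407), and limma called 0 of the 89. The split moved with the scaling: on log2(FPKM + 1) 70 genes were below 0, with a median of -0.14, and with the length and GC offsets 52 were above 0, against 59.1% of all genes, with a median of 0.03. It also moved with single libraries. Without PLLA/ZnO@Col -US replicate 2 the median was 0.18, and edgeR called Ndufa12 (log2 fold change 1.24), Atp5b (0.80) and Sdha (-0.59), with adjusted p of 0.0377, 0.0183 and 0.0215. These are 3 of the 89 (3.37%), against 8.7% of all genes (1039) called in the same fit, so the share was below that of all genes. That fit keeps replicates 1 and 3 of PLLA/ZnO@Col -US, both among the libraries lowest in Y-linked genes. The part of those libraries in these calls was not tested. Without replicate 3 of that group the median was -0.42, with 86 genes below 0, and without replicate 1 it was 0.05.

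Sdha (chr13:74322254-74350280) was at 36.0, 45.1 and 33.7 FPKM in PLLA/ZnO@Col -US, against 54.7, 56.3 and 53.4 FPKM in PLLA/ZnO -US, a log2 fold change of -0.49 (SE 0.14, edgeR adjusted p = 0.144). Ndufs4, an accessory subunit of the matrix arm that is needed for a stable complex I (chr13:114287795-114388258), was at 6.13, 8.62 and 9.44 FPKM in PLLA/ZnO@Col -US, against 14.0, 16.4 and 12.0 FPKM in PLLA/ZnO -US. Its log2 fold change was -0.78 (SE 0.22, edgeR adjusted p = 0.151). Cox7c, a small subunit of complex IV (chr13:86044816-86046904), was at 27.5, 31.3 and 38.7 FPKM in PLLA/ZnO@Col -US, against 50.8, 53.4 and 42.1 FPKM in PLLA/ZnO -US, a log2 fold change of -0.55 (SE 0.17, edgeR adjusted p = 0.175). In these 3 genes the groups did not overlap. Other genes did not share this: Atp5b, for example, was at 556, 282 and 706 FPKM in PLLA/ZnO@Col -US, against 392, 407 and 341 FPKM in PLLA/ZnO -US, so that the groups overlapped.

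These 3 genes lie on chromosome 13, and so do 6 of the 11 genes at an unadjusted p under 0.05 (Sdha, Ndufs4, Cox7c, Uqcrb, Uqcrfs1 and Ndufs6), although chromosome 13 carries 7 of the 89 genes (7.87%) and 3.67% of all tested genes. This was noticed after the values were seen, and Uqcrfs1 (the iron-sulphur protein of complex III) and Ndufs6 are named for it. All 7 genes of chromosome 13 were lower in PLLA/ZnO@Col -US, with a median log2 fold change of -0.52, and so were 78.5% of the 438 tested genes of that chromosome, with a median of -0.19. After the length and GC offsets, the median deviation of the 438 genes was -0.25 to -0.21 in the 3 libraries lowest in Y-linked genes and 0.04 to 0.08 in the other 15 libraries. It was the lowest of the autosomes and X in each of those 3 libraries, and the next lowest, chromosome 1, was at -0.13 to -0.12 there. Other chromosomes were higher in the same libraries. Chromosome 3 was at 0.18 to 0.23, against -0.08 to 0.02 in the other 15 libraries. Chromosome 10, which carries Ndufa12 and Atp5b, was at 0.18 to 0.20, against -0.05 to -0.01. Without these 3 libraries, 1 PLLA/ZnO@Col -US library is left, which is assumed to vary like the other groups. The log2 fold change was then -0.31 for Sdha (edgeR adjusted p = 0.281), -0.74 for Ndufs4 (0.188) and -0.67 for Cox7c (0.0875), and the set's median was -0.66 with 87 of 89 genes below 0. The same fit called 1 of the 89 (1.12%), Ndufa2 at -1.16 (edgeR adjusted p = 0.0198), against 1.39% of all genes (166), a share near that of all genes. With the length and GC offsets over all libraries, the values were -0.47 for Sdha, -0.56 for Ndufs4 and -0.20 for Cox7c. The part of these libraries in the result was not tested.

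With ultrasound, most of the set had lower values on collagen. In PLLA/ZnO@Col +US against PLLA/ZnO +US, 65 of 89 genes had a log2 fold change below 0, against 49.6% of all tested genes (50.4% were above 0), and the median was -0.11, against 0.00 over all genes. The median was -0.10 for complex I, -0.13 for complex II, -0.10 for complex III, -0.19 for complex IV and -0.15 for complex V. In 17 genes the groups did not overlap with PLLA/ZnO@Col +US lower, against 4.06% of all genes, and in none with it higher, against 13.2%. With the length and GC offsets 5 genes did not overlap with it lower, against 5.42% of all genes, a share near that of all genes. edgeR called 0 of the 89 and 0% of all genes, DESeq2 called 0 of the 89 and 0.394% of all genes (47), limma called 0 of the 89, and 6 were at an unadjusted p under 0.05, against 9.43% of all genes. Without PLLA/ZnO +US replicate 3, 37 genes were below 0 and the median was 0.05, and with the length and GC offsets 35 were above 0, against 51.8% of all genes, and the median was -0.04. It was -0.13, with 66 genes below 0, without the 3 libraries lowest in Y-linked genes, and -0.04, with 47 below 0, without the 4 intermediate ones.

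Ndufs4 was at 5.24, 6.85 and 8.19 FPKM in PLLA/ZnO@Col +US, against 12.97, 12.6 and 9.37 FPKM in PLLA/ZnO +US, a log2 fold change of -0.75 (SE 0.22). Ndufa6, a matrix arm subunit of complex I, was at 4.26, 6.61 and 7.32 FPKM in PLLA/ZnO@Col +US, against 9.55, 8.79 and 12.6 FPKM in PLLA/ZnO +US, a log2 fold change of -0.73 (SE 0.22). Uqcrb, which helps form the ubiquinone site of complex III (chr13:66900617-66905378), was at 20.4, 19.3 and 16.9 FPKM in PLLA/ZnO@Col +US, against 36.8, 35.7 and 25.8 FPKM in PLLA/ZnO +US, a log2 fold change of -0.76 (SE 0.23). Each had an edgeR adjusted p of 0.415 and libraries that did not overlap. Of the 6 genes at an unadjusted p under 0.05, 3 lie on chromosome 13, whose tested genes had a median of -0.22 in this comparison, with 75.8% below 0, and a median of -0.15 without the 3 libraries lowest in Y-linked genes. Without the 3 libraries lowest in Y-linked genes the log2 fold changes were -0.63 for Ndufs4, -0.57 for Ndufa6 and -0.85 for Uqcrb, with adjusted p of 0.310, 0.305 and 0.277. Without the 4 intermediate libraries, which leaves 1 PLLA/ZnO@Col +US library, they were -1.23, -1.05 and -0.77. With the length and GC offsets they were -0.41, -0.70 and -0.35. The comparisons of PLLA/ZnO@Col with PLLA/ZnO and of PLLA/ZnO with PLLA share the PLLA/ZnO libraries.

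With ultrasound against without, on the same membrane, no gene of the set passed the test. In PLLA/ZnO@Col +US against PLLA/ZnO@Col -US, 36 genes were above 0 and 53 below, against 47.1% of all genes above and 52.9% below, and the median log2 fold change was -0.02, against -0.03 over all genes. In 2 genes the groups did not overlap with PLLA/ZnO@Col +US lower, against 5.59% of all genes, and in none with it higher, against 5.27%. On log2(FPKM + 1) 55 genes were above 0, and with the length and GC offsets 51, against 45.6% of all genes. The median rested on single libraries. Without PLLA/ZnO@Col -US replicate 3 the median was 0.38, with 80 genes above 0, without replicate 2 of that group it was -0.29, with 82 below 0, and without the 3 libraries lowest in Y-linked genes it was 0.62. Only replicate 2 of PLLA/ZnO@Col -US is left for the 0.62. Leaving out the 4 intermediate libraries gave -0.11, with only replicate 1 of PLLA/ZnO@Col +US left. Ndufa5, a matrix arm subunit of complex I, was at 13.5, 12.5 and 12.7 FPKM in PLLA/ZnO@Col +US, against 15.4, 17.01 and 24.9 FPKM in PLLA/ZnO@Col -US, a log2 fold change of -0.56 (SE 0.24). The assembly factor Ndufaf4 was at 2.02, 2.02 and 1.93 FPKM in PLLA/ZnO@Col +US, against 2.26, 4.83 and 2.64 FPKM in PLLA/ZnO@Col -US, a log2 fold change of -0.69 (SE 0.30). Neither gene's groups overlapped. Atp5j, a coupling factor of ATP synthase, was at 11.8, 9.72 and 11.7 FPKM in PLLA/ZnO@Col +US, against 12.1, 12.4 and 18.5 FPKM in PLLA/ZnO@Col -US, with a log2 fold change of -0.37 (SE 0.17), and its groups were apart in FPKM but overlapped in TMM-scaled CPM. The edgeR adjusted p was 0.525 for each of the 3, and Ndufaf4, whose transcript has a GC content of 39.5%, was at -0.01 with the length and GC offsets. Ndufa5 was at -0.30 and Atp5j at -0.12 without PLLA/ZnO@Col -US replicate 3, and Ndufaf4 at -0.35 without replicate 2 of that group. Without the 3 libraries lowest in Y-linked genes Ndufaf4 was at -1.25 and Atp5j at -0.17. edgeR, DESeq2 and limma called 0 of the 89, and 3 were at an unadjusted p under 0.05, against 8.18% of all genes.

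In PLLA/ZnO +US against PLLA/ZnO -US, 54 genes were above 0, against 46.3% of all genes, while 35 were below, against 53.7%, and the median log2 fold change was 0.04, against -0.03 over all genes. Without PLLA/ZnO +US replicate 3 the median was -0.11, with 72 genes below 0, and it was also -0.11, with 70 below 0, without the 4 intermediate libraries. In 3 genes the groups did not overlap with PLLA/ZnO +US higher, against 7.08% of all genes, and in 3 with it lower, against 4.42%. Ndufa10, an accessory subunit of complex I, was at 35.6, 35.2 and 53.8 FPKM in PLLA/ZnO +US, against 30.5, 33.5 and 30.1 FPKM in PLLA/ZnO -US, a log2 fold change of 0.40 (SE 0.19). Uqcrc2, a core protein of complex III, was at 46.2, 44.04 and 54.0 FPKM in PLLA/ZnO +US, against 42.0, 40.9 and 40.0 FPKM in PLLA/ZnO -US, a log2 fold change of 0.23 (SE 0.13). Ndufa1, a small complex I subunit on chromosome X, was the other way round, at 36.5, 34.8 and 28.6 FPKM in PLLA/ZnO +US, against 47.9, 39.8 and 37.7 FPKM in PLLA/ZnO -US, a log2 fold change of -0.33 (SE 0.19). The libraries of these 3 genes did not overlap, and the edgeR adjusted p was 0.937 for each. With the length and GC offsets Uqcrc2 was at 0.61 and Ndufa1 at -0.17. Ndufa10 was at 0.17 and Uqcrc2 at 0.14 without PLLA/ZnO +US replicate 3, and Ndufa1 was at -0.17 without PLLA/ZnO -US replicate 1. Of the 89 genes, edgeR, DESeq2 and limma called 0, and 1 was at an unadjusted p under 0.05, against 3.24% of all genes.

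In PLLA +US against PLLA -US, 75 of 89 genes were above 0, against 50.5% of all genes, 14 were below, against 49.5%, and the median log2 fold change was 0.14, against 0.00 over all genes. Complexes lay between 0.10 (complex IV) and 0.15 (complex III). In 5 genes the groups did not overlap with PLLA +US higher, against 6.23% of all genes, and in none with it lower, against 5.58%. edgeR, DESeq2 and limma called 0 of the 89, and none of the 89 was at an unadjusted p under 0.05, against 0.436% of all genes. Atp5c1, the rotating gamma subunit of ATP synthase, was at 91.3, 84.4 and 133 FPKM in PLLA +US, against 79.7, 87.9 and 83.3 FPKM in PLLA -US, and its groups overlapped, with a log2 fold change of 0.25 (SE 0.21). Ndufa12 was at 26.6, 26.2 and 51.0 FPKM in PLLA +US, against 22.3, 24.5 and 24.2 FPKM in PLLA -US, with a log2 fold change of 0.50 (SE 0.42), and reads shared with its copy could not be told apart from its own. Ndufaf8, an assembly factor, was at 9.80, 7.38 and 10.3 FPKM in PLLA +US, against 6.07, 8.51 and 7.16 FPKM in PLLA -US, with a log2 fold change of 0.30 (SE 0.26). The edgeR adjusted p was 0.978 for each. Without the 4 intermediate libraries, which here leaves out PLLA +US replicate 3, the set's median was 0.06, Ndufa12 was at 0.16 and Atp5c1 at 0.08. Ndufaf8 was at 0.20 without PLLA -US replicate 1. No difference of the ultrasound effect between membranes was detectable by edgeR's test for any of the 89 genes, nor by DESeq2 or limma. The effect on PLLA/ZnO minus that on PLLA had a median log2 difference of -0.08 and the effect on PLLA/ZnO@Col minus that on PLLA/ZnO one of -0.10. The -0.08 lay between -0.23 and -0.02 when single libraries were left out, was -0.16 without the 4 intermediate libraries and was -0.004 with the length and GC offsets. The -0.10 changed sign: it was 0.28 without PLLA/ZnO@Col -US replicate 3, 0.06 without PLLA/ZnO +US replicate 3, 0.52 without the 3 libraries lowest in Y-linked genes and 0.02 without the 4 intermediate ones. It was -0.36 without PLLA/ZnO@Col -US replicate 2. The 0.52 rests on 1 PLLA/ZnO@Col -US library and the 0.02 on 1 PLLA/ZnO@Col +US library. Of the 89 genes 28 were above 0 for PLLA/ZnO against PLLA, against 46.8% of all genes, and 61 below, against 53.2%. For PLLA/ZnO@Col against PLLA/ZnO 27 were above 0, against 42.8%, and 62 below, against 57.2%. None was at an unadjusted p under 0.05 in either, against 0.385% and 2.2% of all genes. With the length and GC offsets 41 genes were above 0 for PLLA/ZnO against PLLA, and on log2(FPKM + 1) 44 were above 0 for PLLA/ZnO@Col against PLLA/ZnO.

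A test of any difference among the 6 groups called 0 of the 89 genes and 0 of 11936 by edgeR, with 7 of the 89 at an unadjusted p under 0.05, against 10.8% of all genes. DESeq2 called 3, Ndufs4, Uqcrb and Ndufa6, with adjusted p of 0.00953, 0.0238 and 0.0394, which is 3.37% of the 89, against 4.25% of all genes (506). Without the 3 libraries lowest in Y-linked genes 1 PLLA/ZnO@Col -US library is left, and without the 4 intermediate ones 1 PLLA/ZnO@Col +US library. Counts of the test over the 6 groups in those fits are therefore not given. The 5 smallest p belonged to Ndufs4 (edgeR adjusted p = 0.254), Uqcrb (0.281), Ndufa6 (0.316), Sdha (0.357) and Ndufa5 (0.399). Ndufs4 averaged 6.76 ± 1.48 FPKM in PLLA/ZnO@Col +US, 8.06 ± 1.73 in PLLA/ZnO@Col -US, 11.7 ± 1.99 in PLLA/ZnO +US, 14.1 ± 2.20 in PLLA/ZnO -US, 9.93 ± 2.20 in PLLA +US and 10.8 ± 0.627 in PLLA -US (SD, n = 3 each). Uqcrb averaged 18.9 ± 1.83, 25.4 ± 7.09, 32.8 ± 6.04, 40.9 ± 4.90, 29.9 ± 7.92 and 32.96 ± 4.41 FPKM in the same order. Both were highest in PLLA/ZnO -US and lowest in PLLA/ZnO@Col +US. On chromosome 13, where both lie, tested genes as a whole were lower in the libraries lowest in Y-linked genes, as given above.

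A minority of genes departed from the common pattern. After the set's median was taken from each library, the residual SD over libraries was largest for Cox6c2 (0.61), Ndufaf4 (0.58), Ndufs1 (0.56), Uqcrb (0.52), Cox6a2 (0.52), Cox7b (0.51) and Ndufs4 (0.47), and its median over the 89 genes was 0.16. Ndufs1, the largest core subunit of complex I and named here for its values, was at 4.01, 3.84 and 5.02 FPKM in PLLA/ZnO@Col +US, 4.14, 7.74 and 4.23 for PLLA/ZnO@Col -US and 7.37, 7.19 and 3.98 for PLLA/ZnO +US. It was 6.96, 8.66 and 6.85 in PLLA/ZnO -US, 7.23, 6.94 and 5.92 in PLLA +US, and 7.22, 7.46 and 6.86 in PLLA -US. Its 7 lowest libraries were the 7 that were low or intermediate in Y-linked genes. Cox7b, a complex IV subunit on chromosome X, was at 35.5, 41.6 and 40.1 FPKM in PLLA/ZnO@Col +US, 37.6, 48.3 and 51.0 for PLLA/ZnO@Col -US and 67.1, 66.9 and 37.8 for PLLA/ZnO +US. It was 78.1, 81.1 and 65.9 in PLLA/ZnO -US, 67.8, 59.2 and 32.0 in PLLA +US, and 58.9, 56.6 and 63.6 in PLLA -US. Within PLLA/ZnO +US and within PLLA +US, replicate 3 was the lowest library for Ndufs1 and Cox7b, although for the set as a whole it was the highest. The GC content of the longest transcript was 45.1% for Ndufs1, 42.0% for Cox7b, 42.2% for Uqcrb and 43.1% for Ndufs4, against a median of 50.3% over the 89 genes. For the other departing genes named, it was 39.5% for Ndufaf4, 48.5% for Cox6c2 and 52.8% for Cox6a2. Not every departing gene was therefore low in GC.

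**Figure D5:**
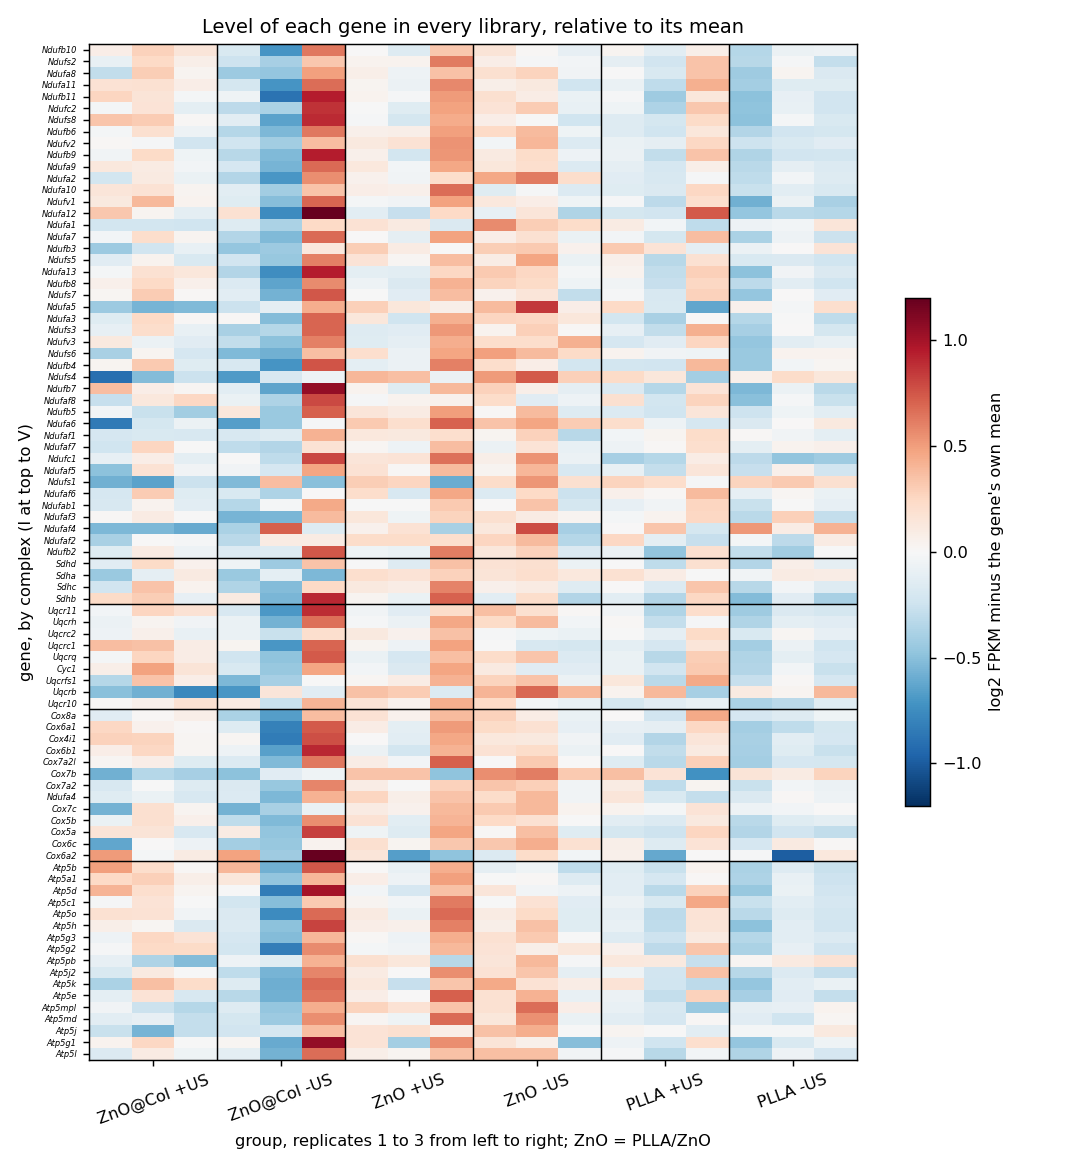
Log2 FPKM of each gene of complexes I to V minus its mean over 18 libraries, with libraries in columns by group and genes in rows by complex. Most rows share the pale to dark steps of the columns, strongest in PLLA/ZnO@Col -US, while Ndufs1, Uqcrb, Cox7b and Ndufs4 are below their means throughout PLLA/ZnO@Col +US, and Uqcrb, Cox7b and Ndufs4 also in replicate 3 of PLLA +US.

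The other genes of the pathway, from lists of known members, also gave no call by edgeR over the 18 libraries in any of the 7 comparisons. Without the 3 libraries lowest in Y-linked genes, calls appeared among these lists in both comparisons that use PLLA/ZnO@Col -US. That group is then left with 1 library, replicate 2, so these calls are not counted here. Of the 13 subunits that mitochondrial DNA encodes, 13 were lower in PLLA/ZnO@Col +US against PLLA/ZnO@Col -US, with a median log2 fold change of -0.60, and 13 were lower in PLLA/ZnO@Col +US against PLLA/ZnO +US, with a median of -0.45. None of these was at an unadjusted p under 0.05. Their medians were -1.46 and -0.75 without the 3 libraries lowest in Y-linked genes, and -0.21 and -0.36 without the 4 intermediate libraries. The -1.46 rests on 1 PLLA/ZnO@Col -US library, replicate 2, which was the highest of all libraries for these 13 genes. The -0.21 and -0.36 rest on 1 PLLA/ZnO@Col +US library. Their median had the opposite sign to that of the nuclear genes in several comparisons: in PLLA/ZnO -US against PLLA -US 10 of 13 were below 0, with a median of -0.21, against 0.32 for the 89 nuclear genes, and in PLLA +US against PLLA -US 11 of 13 were below 0, with a median of -0.11, against 0.14. The last of these turned without the 4 intermediate libraries, where 13 of 13 were above 0, with a median of 0.12. Their library medians ran from -0.74 in PLLA/ZnO@Col +US replicate 2 to 0.81 in PLLA/ZnO@Col -US replicate 2, the lowest library of the nuclear set. mt-Nd3, a complex I subunit and the gene of this list with the smallest p over the 6 groups, had a log2 fold change of 0.56 (SE 0.23, edgeR adjusted p = 1) in PLLA/ZnO +US against PLLA +US, and 0.22 without the 4 intermediate libraries. Of the 5 mobile carrier and inhibitor genes, Cycs, which encodes cytochrome c, had -0.39 (SE 0.17, adjusted p = 0.497) in PLLA/ZnO@Col +US against PLLA/ZnO +US. Of 34 tested assembly factors outside the name rule, 26 were above 0 in PLLA/ZnO -US against PLLA -US, with a median of 0.14, and Tmem70, which assembles ATP synthase, had -0.65 (SE 0.23, adjusted p = 0.430) in PLLA/ZnO@Col +US against PLLA/ZnO +US. Without the 4 intermediate libraries Cycs was at -0.51 and Tmem70 at -1.11, and without the 3 lowest in Y-linked genes at -0.39 and -0.55. The -0.51 and -1.11 rest on 1 PLLA/ZnO@Col +US library, replicate 1, itself among the lowest in Y-linked genes. It was the lowest of all libraries for both genes in FPKM.

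Upstream of the chain, 14 of 18 genes of the tricarboxylic acid cycle and pyruvate entry were above 0 in PLLA/ZnO -US against PLLA -US, with a median log2 fold change of 0.03. Ogdh, a subunit of the oxoglutarate dehydrogenase complex, had 0.40 (SE 0.13, edgeR adjusted p = 0.525) in PLLA/ZnO@Col +US against PLLA/ZnO@Col -US, 0.58 without the 3 libraries lowest in Y-linked genes and 0.25 without the 4 intermediate ones. Of 18 tested genes of mitochondrial biogenesis and mitochondrial DNA expression, Pprc1, a coactivator related to PGC-1, was at 25.5, 20.2 and 17.6 FPKM in PLLA/ZnO@Col -US, against 14.9, 12.9 and 14.1 FPKM in PLLA/ZnO -US. Its libraries did not overlap, and its log2 fold change was 0.63 (SE 0.14, edgeR adjusted p = 0.0780), or 0.50 without the 3 libraries lowest in Y-linked genes. That 0.50, like the 0.58 of Ogdh, rests on replicate 2 of PLLA/ZnO@Col -US alone in that group. The 0.25 of Ogdh rests on replicate 1 of PLLA/ZnO@Col +US alone in that group. Glycolysis genes and hypoxia targets, 21 symbols in 22 gene records, had 21 of 22 above 0 in PLLA/ZnO -US against PLLA -US, with a median of 0.45. In PLLA/ZnO +US against PLLA/ZnO -US 22 of 22 were below 0, with a median of -0.41 (-0.50 without the 4 intermediate libraries), where the 89 nuclear genes had 0.04; these comparisons share the PLLA/ZnO -US libraries. Pdk1, the kinase that restrains pyruvate entry into mitochondria, was at 8.55, 9.61 and 7.43 FPKM in PLLA/ZnO +US, against 13.3, 15.1 and 18.6 FPKM in PLLA/ZnO -US. Its log2 fold change was -0.88 (SE 0.18, edgeR adjusted p = 0.937), or -0.78 without the 4 intermediate libraries, and the groups did not overlap.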

How the data were processed

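RNA with a polyadenylated tail was read on Illumina instruments in 18 samples. The submitters' processing notes name cutadapt 1.9 and FastQC as tools and GRCm38 as the genome. No source used here names the aligner or the counter, or says whether strand was used. The table that the authors deposited holds whole counts for each gene, without normalization, and FPKM, per the file headers. Gene coordinates are those of that table, on GRCm38. Libraries were placed in groups by their titles.

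Levels and library values are FPKM. Tests used counts: TMM scaling, 18 libraries in 1 fit, edgeR 4.0.16 quasi-likelihood F-test in R 4.3.3, two-sided, 12 residual degrees of freedom, Benjamini-Hochberg adjustment over 11936 genes with 1 FPKM in 3 libraries, threshold 0.05. The code was tested on simulated data. Library depth was 48307580 to 78039543 counts. Transcript length and GC came from GENCODE, for the longest coding transcript of a gene, and entered each library's offset as splines with 4 degrees of freedom. Alternatives were DESeq2 1.42.0, its size factors, limma 3.58.1 on log2(FPKM + 1) or log2(FPKM + 0.1), no filter on FPKM, a replicate block, only the groups compared, and each library left out. Leaving out libraries by Y-linked level, and the offsets, were added after seeing the data.

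The genes, pathway lists and tests were chosen with earlier results of these data known. Named genes are the highest and lowest of each complex, complex IV and subunit c isoforms, the Sdh genes, the 3 smallest p per comparison, the 5 smallest over 6 groups, and 1 gene per pathway list. Deviations of samples with the same number correlated at -0.49 to 0.73 over genes and passed 0.1 for all 3 pairs in 1 of 7 comparisons, PLLA/ZnO +US against PLLA +US (0.56, 0.55 and 0.73). There the numbers were taken to pair the libraries, an assumption that the labels do not state. In both groups replicate 3 was intermediate in Y-linked genes, at 2.55 FPKM in PLLA/ZnO +US and 4.97 FPKM in PLLA +US. The part of these libraries in the correlation was not tested. The blocked fit, with replicate number as a factor over all 18 libraries, also called 0 of 89 genes. It is not a paired test of that comparison alone, whose values above come from the fit without the block. No pair of replicates agreed within sampling noise (lowest chi-square per degree of freedom 13.1).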

Additional observations from a re-analysis of the deposited data

How the results depend on the processing

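Under edgeR no gene of the set passed in any comparison, so each count past the threshold is 0. In PLLA/ZnO@Col -US against PLLA/ZnO -US it became 2 by DESeq2's Wald test (against 3.41% of all genes), 3 without PLLA/ZnO@Col -US replicate 2 (against 8.7%) and 1 without the 3 libraries lowest in Y-linked genes (against 1.39%), and over the 6 groups it became 3 by DESeq2 (against 4.25%). Each of these shares of the 89 is below that of all genes in the same fit. Leaving out single libraries gave 0 to 3 in the first case. The 3 calls rest on replicates 1 and 3 of PLLA/ZnO@Col -US, both among the libraries lowest in Y-linked genes. The median log2 fold change of PLLA/ZnO -US against PLLA -US, 0.32, was 0.16 with length and GC offsets, without or with the replicate block, and 0.16 to 0.39 over all 29 alternatives. Without the 3 libraries lowest in Y-linked genes, PLLA/ZnO@Col +US against PLLA/ZnO@Col -US had a median of 0.62, PLLA/ZnO@Col -US against PLLA/ZnO -US one of -0.66, and the ultrasound effect on PLLA/ZnO@Col minus that on PLLA/ZnO one of 0.52. Leaving out single libraries moved that last value between -0.36 and 0.28. The 0.62, -0.66 and 0.52 rest on replicate 2 of PLLA/ZnO@Col -US, the only library left in that group. The 1 call given for that setting does too. The cause of these shifts was not tested. The 21 log2 fold changes of genes named for a comparison had the same sign in every alternative run. These genes were picked by p in the same data and the alternatives share most libraries, so a stable sign is weak evidence. Ndufaf4 in PLLA/ZnO@Col +US against PLLA/ZnO@Col -US ran from -1.248 to -0.0067. The replicate block called 0 genes of the set in each of the 7 comparisons, with medians of 0.32 for PLLA/ZnO -US against PLLA -US and 0.21 for PLLA/ZnO +US against PLLA +US, and changed no call. Counts at an unadjusted p under 0.05 also moved where neither group lost a library. Without the 3 libraries lowest in Y-linked genes the count was 14 of the 89, against 3.91% of all genes, in PLLA/ZnO +US against PLLA +US. No test of depth as a limit was run.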
